A study of Mus musculus with 8 samples.

Results

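The genes of glycolysis and of the fate of its end product, pyruvate, were followed in femoral growth plate cartilage of 12-day-old littermate mice of 2 genotypes, 4 labelled CreTW and 4 labelled Cre. They were the 34 genes of a list of transporters and enzymes for which at least 1 probe, given in the files as a RefSeq transcript of the gene, exceeded the scanner's background test on 4 or more of the 8 arrays. All 34 listed genes met this, among 23105 features measured in all, and the probe used for each was well above background on all 8 arrays. The genotype names are not explained in the labels. From what is known of the study, both genotypes carry the Cre recombinase under a Col2a1 promoter, which is active in chondrocytes, and the CreTW mice carry in addition a mutant Twinkle transgene that Cre switches on. Twinkle is the helicase that unwinds mitochondrial DNA for its replication, and the series title names the question, the loss of the respiratory chain in cartilage. The Cre mice served as the controls, so what the recombinase itself does was shared by both groups, and cells that never expressed it were part of each tissue sample.

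Glycolysis splits glucose into pyruvate and yields some ATP without oxygen. Glucose enters through transporters of the GLUT family and is trapped by hexokinase, the core enzymes turn it into pyruvate, and pyruvate is then either reduced to lactate, which leaves with protons through monocarboxylate transporters, or carried into mitochondria and oxidised by the pyruvate dehydrogenase complex. The growth plate has few blood vessels and little oxygen, and its chondrocytes are known to rely on glycolysis, under the control of the hypoxia-inducible factor HIF-1, which raises the transcription of many glycolytic genes.

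Every mouse gave 1 RNA sample and 1 single-colour Agilent array. Values are log2 intensities relative to the 75th percentile of the array, so they rank arrays for 1 gene and not genes against each other. Between 45.4% and 57.9% of 56605 probes exceeded background on each array, and 0 spots were saturated. Pairs of arrays correlated at r between 0.972 and 0.989 across the 23105 features, with a mean of 0.986 within a genotype and 0.982 between genotypes. The number of arrays, 4 per genotype, limits the precision. Differences are CreTW minus Cre with their SE (n = 4 arrays per genotype), and p-values come from limma, adjusted by Benjamini-Hochberg across all 23105 features, with a threshold of 0.05.

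Most genes of glycolysis and lactate export had lower values in CreTW cartilage, those of pyruvate entry into mitochondria were split between both directions, and 0 of the 34 genes passed the test. The background was low, since 0.346% of all features passed, 0.229% with higher and 0.117% with lower values in CreTW. The difference was negative for 25 of the 34 genes, with a median of -0.18 on the log2 scale, against 51.6% of all features and a median of -0.01. At an unadjusted p under 0.05 stood 13 of the 34 genes, 10 lower and 3 higher in CreTW, against 10.7% of all features in either direction. Without the array of Cre replicate 2 this count was 6, beside 1575 of all 23105 features. The 4 CreTW values lay below all 4 Cre values for 6 genes (Pfkl, Pgk1, Pgam1, Eno1, Ldha and Slc16a3), as they did for 2.81% of all features. They lay above all 4 Cre values for 3 genes (Eno2, Mpc1 and Pdp1), as they did for 3.89% of all features. These counts use 1 probe per gene, and the genotypes overlapped on the other kept probe of Eno1 and of Pdp1.

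**Figure D1:**
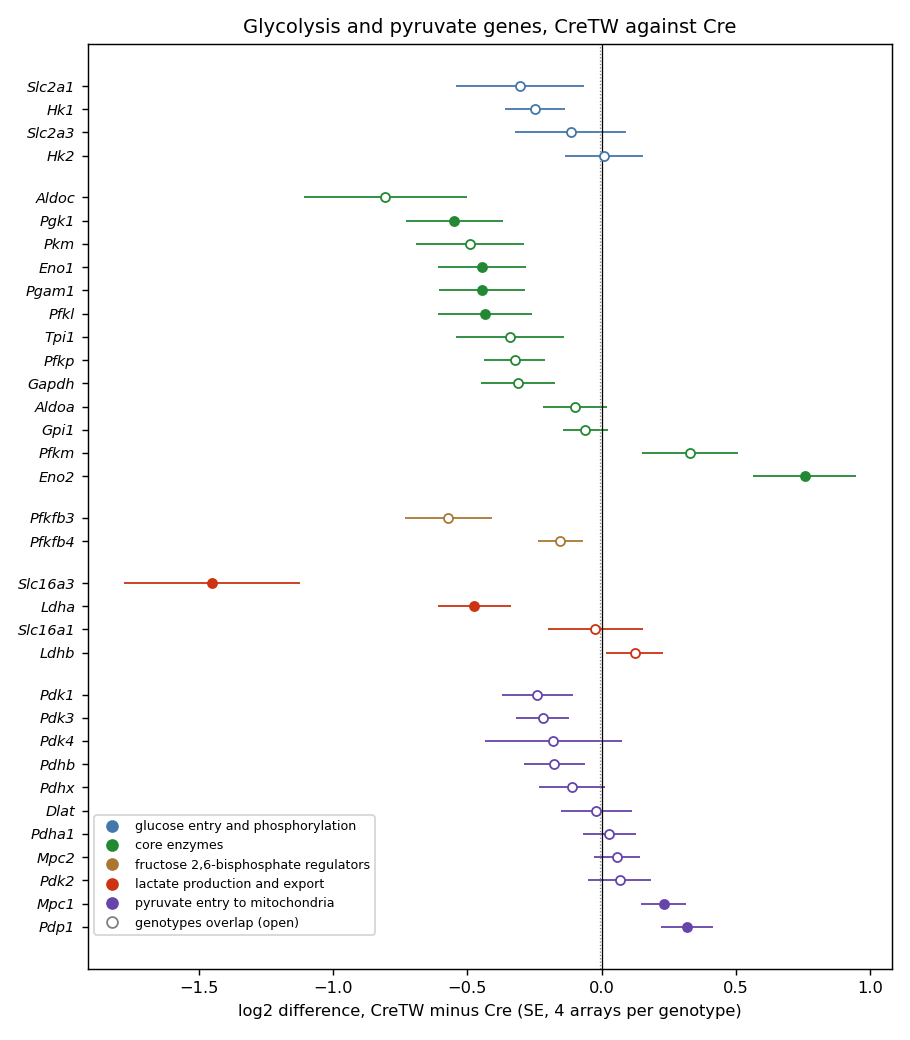
Log2 difference of each of the 34 genes between CreTW and Cre cartilage (points, horizontal axis) with its SE (bars, 4 arrays per genotype), grouped and coloured by role. Filled points mark the 9 genes whose genotypes did not overlap, and the dotted line is the median of all features (-0.01). Slc16a3 lies farthest to the left at -1.45 and Eno2 farthest to the right at 0.75.

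By role, the median differences ran between -0.36 and -0.02, the ranges of the groups overlapped, and differences between groups were not tested. The 13 core enzymes had a median difference of -0.34, with 11 of 13 negative. The 4 genes of lactate production and export had a median of -0.25, with 3 of 4 negative, and this median was -0.14 without the array of Cre replicate 4. The 4 genes of glucose entry and phosphorylation had a median of -0.18, with 3 of 4 negative. It was -0.11 without CreTW replicate 1. Both regulators of fructose 2,6-bisphosphate were negative, with a median of -0.36. The 11 genes of pyruvate entry had a median of -0.02, with 6 negative and 5 positive.

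Promoters are shown for 4 genes, the 3 with the lowest p among those lower in CreTW in the lactate group and the core enzymes, and Eno2, the core enzyme with the lowest p among those higher. The windows run from 250 bases before to 50 bases after the transcription start in the RefSeq annotation of the mouse assembly GRCm38.p6, 5′ to 3′ on the gene's strand. Capitals mark the letters ACGTG and GCGTG, the core letters that HIF-1 is known to bind, on either strand, so that CACGT and CACGC count as well.
Slc16a3, chr11:120948817-120949116, plus strand: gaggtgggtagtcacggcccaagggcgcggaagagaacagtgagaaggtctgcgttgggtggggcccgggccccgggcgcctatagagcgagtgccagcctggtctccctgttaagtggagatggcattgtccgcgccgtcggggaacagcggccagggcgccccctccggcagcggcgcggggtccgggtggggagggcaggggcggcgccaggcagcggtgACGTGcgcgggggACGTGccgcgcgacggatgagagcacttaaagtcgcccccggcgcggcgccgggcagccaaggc
Ldha, chr7:46845554-46845853, plus strand, the first of 2 windows of this gene: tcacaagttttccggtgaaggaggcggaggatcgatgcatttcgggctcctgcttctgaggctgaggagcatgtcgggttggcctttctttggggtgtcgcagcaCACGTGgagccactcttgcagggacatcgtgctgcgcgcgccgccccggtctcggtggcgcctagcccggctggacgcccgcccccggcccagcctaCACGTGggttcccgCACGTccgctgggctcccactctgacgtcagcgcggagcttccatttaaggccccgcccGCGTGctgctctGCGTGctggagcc
Pgk1, chrX:106186850-106187149, plus strand: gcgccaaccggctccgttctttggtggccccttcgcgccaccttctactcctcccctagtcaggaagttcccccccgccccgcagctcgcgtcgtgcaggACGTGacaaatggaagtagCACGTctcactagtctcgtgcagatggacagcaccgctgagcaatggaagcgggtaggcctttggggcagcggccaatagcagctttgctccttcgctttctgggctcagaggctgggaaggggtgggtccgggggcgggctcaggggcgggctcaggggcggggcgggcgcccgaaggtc
Eno2, chr6:124769624-124769923, minus strand: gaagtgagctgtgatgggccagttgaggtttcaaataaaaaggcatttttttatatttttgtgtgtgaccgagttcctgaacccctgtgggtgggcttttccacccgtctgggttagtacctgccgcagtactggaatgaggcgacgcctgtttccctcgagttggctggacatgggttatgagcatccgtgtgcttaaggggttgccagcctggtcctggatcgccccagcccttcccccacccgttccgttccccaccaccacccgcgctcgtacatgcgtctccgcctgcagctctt
The Slc16a3 and Pgk1 windows hold ACGTG at 2 places each. The Ldha window holds ACGTG at 5 places and GCGTG at 2, and 4 of those 5 lie within 2 copies of CACGTG, which contains ACGTG on both strands. The Eno2 window holds neither set of letters. Among the genes not shown, Tpi1, Gpi1 and Dlat, with negative differences, also had neither motif. Pfkm, with a positive difference, had 4 windows, with ACGTG at up to 3 places and GCGTG at up to 1 in any single window.

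RefSeq windows were found for 32 of the 34 genes by symbol. Pdp1 and Slc2a3 were not matched. ACGTG stood in a window of 17 of these 32 genes (53.1%), against 21.8% of all 27025 genes with windows. GCGTG stood in a window of 22 genes (68.8%), against 35.2% of all, and 28 genes (87.5%) held at least 1 of these motifs, against 46.7% of all. CACGTG, which overlaps ACGTG, stood in a window of 5 genes (15.6%), against 8.09% of all. Counted over windows of the same length, 42.6% of the 47 windows of these genes held ACGTG, against 19.6% of all 32851 windows, and 57.4% held GCGTG, against 32.4%. These windows were richer in G and C, with a median of 62% against 52.7% over all windows, and the part of base composition in these shares was not tested. A match of letters is a description of the window and not a site at which a factor was measured.

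Of the genes that bring glucose into the cell and trap it, none had values that separated the genotypes. Slc2a1 encodes GLUT1, the glucose transporter of most tissues. Its log2 values were 2.59, 2.81, 2.20 and 2.55 on the CreTW arrays, against 2.34, 3.01, 2.58 and 3.44 on the Cre arrays. The ranges overlapped, with the lowest value on CreTW 3 and the highest on Cre 4 (difference -0.30 ± 0.24, adjusted p = 0.671), and the difference was -0.10 without Cre 4. Slc2a3 encodes GLUT3, a transporter of high affinity for glucose that is best known from neurons. It had values of -1.64, -0.81, -1.11 and -1.38 on the CreTW arrays, against -0.99, -0.98, -0.95 and -1.56 on the Cre arrays. The value of Cre 4 stood apart from the other Cre arrays and lay among those of CreTW (difference -0.12 ± 0.21, adjusted p = 0.87).

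Hexokinase phosphorylates glucose and so holds it in the cell. Hk1, the hexokinase found in most tissues, had values of 3.09, 2.99, 3.07 and 3.29 on the CreTW arrays, against 3.38, 3.51, 3.12 and 3.41 on the Cre arrays. The CreTW arrays lay below the Cre arrays except for CreTW 4, which exceeded Cre 3 (difference -0.25 ± 0.11, adjusted p = 0.476). Hk2, the hexokinase of insulin-sensitive and hypoxic tissues and a known HIF-1 target, had values of 0.50, 0.60, 0.30 and 0.68 on the CreTW arrays, against 0.26, 0.60, 0.35 and 0.83 on the Cre arrays. All 4 CreTW values lay within the Cre range (difference 0.01 ± 0.14, adjusted p = 0.989).

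The core enzymes had lower values in CreTW at most steps of the pathway. Gpi1, the isomerase that turns glucose 6-phosphate into fructose 6-phosphate, had a difference of -0.06 ± 0.08, within the spread of the arrays. Phosphofructokinase, which commits the sugar to glycolysis, is built from subunits of 3 genes whose values differed in direction. Pfkl, named for the liver subunit, had values of 1.66, 1.66, 1.06 and 1.54 on the CreTW arrays, against 1.67, 1.92, 1.79 and 2.27 on the Cre arrays. The genotypes did not overlap, but CreTW 2 and Cre 1 were nearly equal (difference -0.44 ± 0.17, adjusted p = 0.432). Pfkp, named for the platelet subunit, had values of 1.60, 1.48, 1.63 and 1.46 on the CreTW arrays, against 1.85, 1.97, 1.59 and 2.06 on the Cre arrays. Cre 3 lay among the CreTW arrays and the other Cre arrays above all of them (difference -0.32 ± 0.11, unadjusted p = 0.0207, adjusted p = 0.365 in limma).

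Pfkm, the muscle subunit of phosphofructokinase, was the other core enzyme besides Eno2 with a positive difference. It had values of 2.71, 3.48, 2.93 and 2.90 on the CreTW arrays, against 2.45, 2.60, 2.68 and 2.98 on the Cre arrays (difference 0.33 ± 0.18, adjusted p = 0.557). The highest value was on CreTW 2, and the other 3 CreTW arrays lay within the Cre range. Without CreTW 2 the difference was 0.17. The summed linear level of 17 skeletal muscle markers, in units of the array's 75th percentile, was 49, 666, 398 and 236 on CreTW 1 to 4, against 37, 76.6, 106 and 64.4 on Cre 1 to 4. All 17 markers were kept, 10 of them were well above background on all 8 arrays, all 17 had a positive difference, and 0 passed the test. Tnni2 contributed the most to the sum on CreTW 1 and on every Cre array. It differed little between genotypes (difference 0.31 ± 0.44, adjusted p = 0.823 in limma), so the order of those arrays by the sum leans on this marker. The part of muscle RNA in the differences of Pfkm was not tested.

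Aldolase splits fructose 1,6-bisphosphate into triose phosphates. Aldoa, the form found in muscle and most other tissues, had values of 7.30, 7.51, 7.18 and 7.56 on the CreTW arrays, against 7.38, 7.56, 7.34 and 7.67 on the Cre arrays. The ranges overlapped, with CreTW 3 and CreTW 1 the lowest arrays (difference -0.10 ± 0.12, adjusted p = 0.784). Aldoc, the form best known from brain, had values of 2.72, 3.28, 2.37 and 2.89 on the CreTW arrays, against 2.98, 4.0, 3.26 and 4.24 on the Cre arrays. Cre 2 and Cre 4 lay above every CreTW array by a wide margin, and CreTW 2 exceeded Cre 1 and Cre 3 (difference -0.81 ± 0.30, adjusted p = 0.401). Its other kept probe gave -0.77.

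The steps between triose phosphates and 3-phosphoglycerate were measured by Tpi1, Gapdh and Pgk1. Tpi1, the isomerase of the triose phosphates, had a difference of -0.34 ± 0.20, with 3 probes between -0.39 and -0.32, and it was -0.18 without Cre 4. Gapdh, which reduces NAD+ in the oxidation of glyceraldehyde 3-phosphate, had a difference of -0.31 ± 0.14, with 6 probes between -0.31 and -0.06. Pgk1, which makes the first ATP of the pathway, had values of 7.25, 7.37, 6.98 and 7.28 on the CreTW arrays, against 7.48, 7.90, 7.47 and 8.22 on the Cre arrays. Every CreTW array lay below every Cre array, with Cre 4 the highest (difference -0.55 ± 0.18, unadjusted p = 0.0151, adjusted p = 0.338 in limma). For Gapdh, Pgk1, Ldha, Eno1 and other abundant enzymes, near-identical pseudogenes or retrocopies such as Eno1b are known in the mouse, and the array's probes may not tell them apart.

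The last steps to pyruvate showed 3 enzymes with lower and 1 with higher values. Pgam1, which moves the phosphate of phosphoglycerate, had a difference of -0.45 ± 0.16 with no overlap between genotypes (adjusted p = 0.379). Eno1, the enolase of most tissues, had values of 6.66, 6.67, 6.32 and 6.66 on the CreTW arrays, against 6.86, 7.13, 6.70 and 7.40 on the Cre arrays. The genotypes did not overlap, and CreTW 3 lay well below the other CreTW arrays (difference -0.45 ± 0.16, adjusted p = 0.385). The other kept probe of Eno1 gave -0.40, with CreTW 1 (2.34) above Cre 1 (2.29) and CreTW 3 close to CreTW 2 and CreTW 4. Eno2, the enolase known from neurons, went the other way. It had values of 0.45, 0.59, -0.11 and 0.78 on the CreTW arrays, against -0.24, -0.53, -0.41 and -0.12 on the Cre arrays. Each CreTW array lay above each Cre array, although CreTW 3 and Cre 4 were nearly equal (difference 0.75 ± 0.19, 1.69-fold, unadjusted p = 0.00371, adjusted p = 0.224 in limma). Pkm, the pyruvate kinase of muscle and most other tissues, had a difference of -0.49 ± 0.20, and CreTW 1, CreTW 2 and CreTW 4 lay just above Cre 3 (adjusted p = 0.44).

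**Figure D2:**
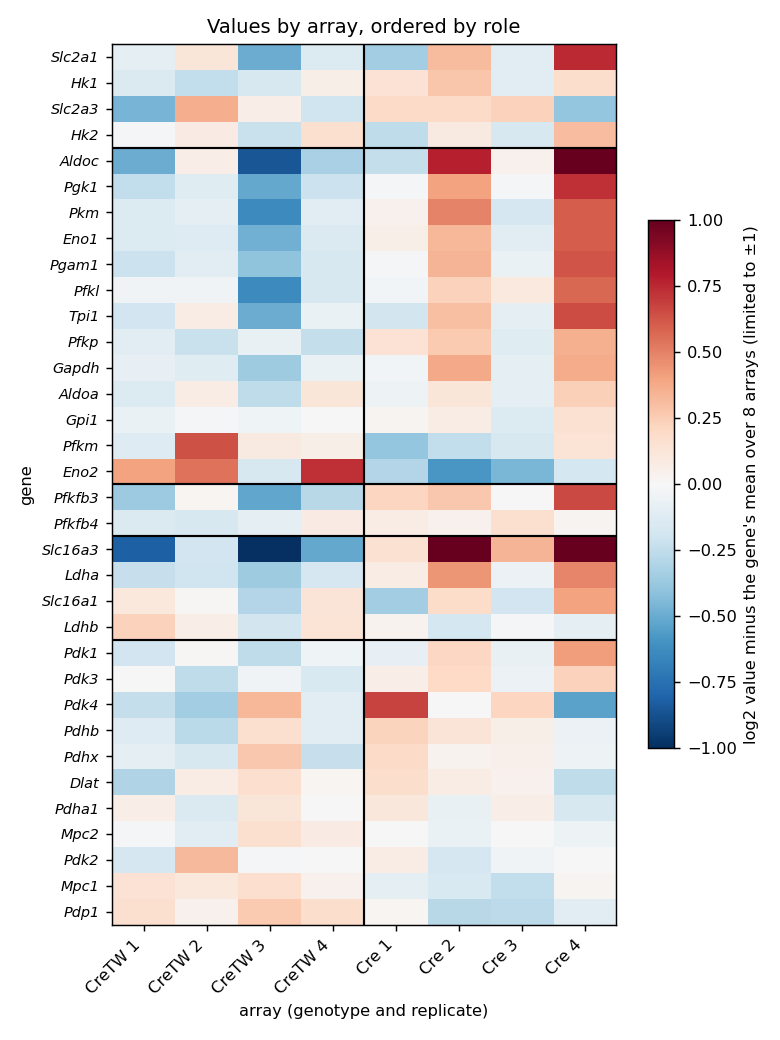
Each gene's log2 value on each array minus its mean over the 8 arrays (colour, red above and blue below the mean, limited to ±1), with CreTW arrays on the left, Cre arrays on the right and genes ordered by role. Cre 4 was the highest of the 8 arrays for 10 of the 13 core enzymes and CreTW 3 the lowest for 9 of them.

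Individual arrays carried much of the spread in the core enzymes, as the map of values by array shows. Over all 34 genes, Cre 4 was the highest array for 18 and CreTW 3 the lowest for 15. The mean centred value of the core enzymes was -0.12, 0.04, -0.37 and -0.04 on CreTW 1 to 4, against -0.07, 0.22, -0.11 and 0.45 on Cre 1 to 4. Thus Cre 1 and Cre 3 lay among the CreTW arrays, while Cre 2 and Cre 4 stood above them. The summed level of 13 chondrocyte markers, all well above background on all 8 arrays, ran between 2224 and 3001 on the CreTW arrays, against 2298 and 3876 on the Cre arrays, in the same units as for muscle. It was lowest on CreTW 3 and highest on Cre 4, the same arrays as for the core enzymes, 12 of the 13 markers had a negative difference, and 0 passed the test. In whole tissue, fewer cells of a type and less RNA per cell cannot be told apart. The median difference of the chondrocyte markers was -0.16, beside -0.34 for the 13 core enzymes and -0.18 for all 34 genes. The part of chondrocyte RNA in these differences was not tested.

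**Figure D3:**
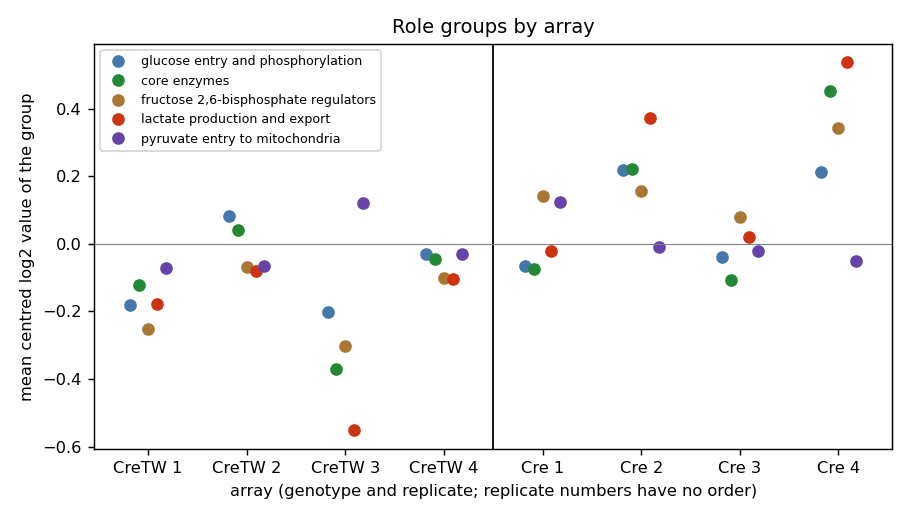
Mean over the genes of each role group of the centred log2 values (vertical axis), for each array (horizontal axis), with CreTW arrays left of the line and Cre arrays right of it. The lactate group (red) was lowest on CreTW 3 at -0.55 and highest on Cre 4 at 0.54, while the pyruvate entry group (purple) stayed between -0.07 and 0.13.

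Fructose 2,6-bisphosphate is the strongest known activator of phosphofructokinase, and the PFKFB enzymes make and break it. Pfkfb3, which mainly makes it, had values of 1.84, 2.22, 1.68 and 1.92 on the CreTW arrays, against 2.41, 2.47, 2.20 and 2.86 on the Cre arrays. The genotypes were apart except that CreTW 2 slightly exceeded Cre 3 (difference -0.57 ± 0.16, unadjusted p = 0.00741, adjusted p = 0.271 in limma), and the other kept probe gave -0.34. Pfkfb4, a HIF-1 target of the same family, had values of 0.49, 0.47, 0.54 and 0.71 on the CreTW arrays, against 0.71, 0.68, 0.79 and 0.66 on the Cre arrays. CreTW 4 lay among the Cre arrays and the other CreTW arrays below them (difference -0.15 ± 0.08, adjusted p = 0.56).

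The lowest p of the 34 genes belonged to Slc16a3, which encodes MCT4, the low-affinity exporter of lactate in glycolytic cells. Its values were 3.43, 4.06, 2.87 and 3.73 on the CreTW arrays, against 4.40, 5.30, 4.59 and 5.60 on the Cre arrays. No CreTW array reached the lowest Cre array, with CreTW 3 the lowest and Cre 4 the highest (difference -1.45 ± 0.33, 0.366-fold, unadjusted p = 0.00188, adjusted p = 0.188 in limma). Slc16a1 encodes MCT1, a transporter of higher affinity that takes lactate up or exports it. It had values of 1.82, 1.72, 1.42 and 1.84 on the CreTW arrays, against 1.37, 1.90, 1.52 and 2.11 on the Cre arrays. All 4 CreTW values lay within the Cre range (difference -0.02 ± 0.18, adjusted p = 0.974).

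Lactate dehydrogenase is a tetramer of A and B subunits. Ldha, the A subunit, favours the reduction of pyruvate to lactate and regenerates NAD+. It had values of 7.77, 7.80, 7.64 and 7.83 on the CreTW arrays, against 8.07, 8.44, 7.94 and 8.49 on the Cre arrays. The CreTW arrays lay close together and all below the Cre arrays (difference -0.47 ± 0.14, unadjusted p = 0.00761, adjusted p = 0.272 in limma), and the other kept probe gave -0.63. Ldhb, the B subunit of heart and other oxidative tissues, had values of 3.69, 3.53, 3.28 and 3.60 on the CreTW arrays, against 3.50, 3.29, 3.46 and 3.37 on the Cre arrays. CreTW 3 lay below all Cre arrays and the other CreTW arrays above them (difference 0.12 ± 0.11, adjusted p = 0.702).

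A constant added to all log2 values of an array cancels in the difference between paired forms within that array, and 6 such pairs were compared, with an exact permutation test over all 70 assignments of the arrays, two-sided, and Benjamini-Hochberg adjustment over the 6 pairs. The smallest p this design allows is 0.0286. The pairs were chosen with earlier results of these data known. Ldha minus Ldhb was lower in CreTW by a difference of -0.60 ± 0.19 (exact p = 0.0286, adjusted 0.0571), on 4 of 4 CreTW arrays below every Cre array. Slc16a3 minus Slc16a1 differed by -1.43 ± 0.23 (exact p = 0.0286, adjusted 0.0571), again with no overlap. Eno1 minus Eno2 differed by -1.20 ± 0.19 (exact p = 0.0286, adjusted 0.0571), with no overlap. After adjustment 0 of the 6 pairs passed, and 3 of the 6 were under 0.05 before it. Those 3 stood at the smallest p the design allows, which the adjustment turned into 0.0571. They could therefore not pass, however far apart the genotypes lay, and the adjusted test could not decide on them.

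In the other pairs the genotypes overlapped. Aldoa minus Aldoc differed by 0.70 ± 0.26 (exact p = 0.0571, adjusted 0.0857) and Hk2 minus Hk1 by 0.26 ± 0.14 (exact p = 0.2, adjusted 0.24). Slc2a1 minus Slc2a3 differed by -0.19 ± 0.42 (exact p = 0.743, adjusted 0.743), with a wide spread over the Cre arrays, and by 0.16, the opposite sign, without Cre 4. Without the array of Cre replicate 1, 4 pairs (Ldha minus Ldhb, Slc16a3 minus Slc16a1, Eno1 minus Eno2 and Aldoa minus Aldoc) had an adjusted exact p of 0.0429. Aldoa minus Aldoc did not overlap between genotypes without that array. With this pair also at the smallest p possible, the adjustment gave the same lower value to all 4 pairs.

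**Figure D4:**
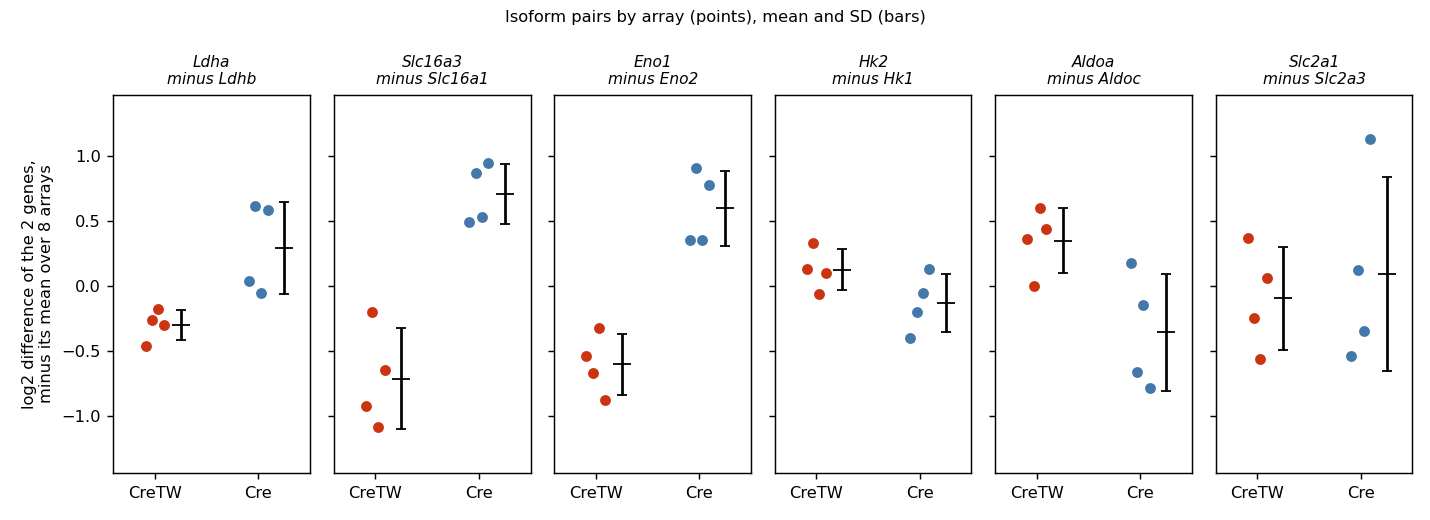
Log2 difference of the 2 genes of each pair on each array (points), minus the mean of that difference over the 8 arrays, with the mean and SD of each genotype (bars, 4 arrays each). CreTW is left of Cre in each panel, and all 4 CreTW arrays lie below all 4 Cre arrays for Ldha minus Ldhb, Slc16a3 minus Slc16a1 and Eno1 minus Eno2.

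Entry of pyruvate into mitochondria showed small differences in both directions. The carrier of the inner membrane is made of MPC1 and MPC2. Mpc1 had values of 3.59, 3.55, 3.62 and 3.49 on the CreTW arrays, against 3.35, 3.30, 3.20 and 3.47 on the Cre arrays. Every CreTW array lay above every Cre array, by a narrow margin between CreTW 4 and Cre 4 (difference 0.23 ± 0.08, 1.17-fold, unadjusted p = 0.0253, adjusted p = 0.389 in limma), and both probes gave 0.23. Mpc2 had a difference of 0.06 ± 0.08 with overlapping arrays. The subunits of the pyruvate dehydrogenase complex, which turns pyruvate into acetyl-CoA, lay near 0. The E1 subunits Pdha1 and Pdhb had differences of 0.03 ± 0.10 and -0.18 ± 0.11, the E2 subunit Dlat one of -0.02 ± 0.13, and Pdhx, which binds the E3 enzyme to the complex, one of -0.11 ± 0.12.

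The complex is switched off by pyruvate dehydrogenase kinases and on by the phosphatases that remove the phosphate. Pdp1, the catalytic subunit of one of these phosphatases, had values of -0.34, -0.45, -0.23 and -0.32 on the CreTW arrays, against -0.47, -0.77, -0.76 and -0.61 on the Cre arrays. All CreTW arrays lay above all Cre arrays, CreTW 2 by the least (difference 0.32 ± 0.10, 1.25-fold, unadjusted p = 0.0106, adjusted p = 0.297 in limma). The other kept probe gave 0.28, but on it the genotypes overlapped, with Cre 3 at -1.78 above every CreTW array. Of the kinases, Pdk3 had values of -0.84, -1.09, -0.87 and -0.98 on the CreTW arrays, against -0.77, -0.64, -0.89 and -0.60 on the Cre arrays. Cre 3 lay among the CreTW arrays and the other Cre arrays above them (difference -0.22 ± 0.10, adjusted p = 0.476). Pdk1, a HIF-1 target, had a difference of -0.24 ± 0.13, with 4 probes between -0.30 and -0.04, and it was -0.14 without Cre 4. Pdk4, which rises with fasting in many tissues, had one of -0.18 ± 0.25 and Pdk2, a widely expressed kinase, one of 0.07 ± 0.12. Of the 4 kinases 3 thus had a negative difference, and 0 passed the test.

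Of 61 other genes of glucose and pyruvate metabolism, listed with earlier results of these data known, 50 were measured, 2 passed the test and both rose. Over all features 0.346% passed, 0.229% with higher values in CreTW. The median difference of the 50 genes was -0.04. Gpt2, the mitochondrial alanine aminotransferase that interconverts pyruvate and alanine, had values of 1.31, 1.01, 1.25 and 0.76 on the CreTW arrays, against -0.50, -0.29, -0.70 and -0.51 on the Cre arrays. The genotypes were far apart (difference 1.58 ± 0.14, 3.0-fold, adjusted p = 0.00355 in limma). Pck2, the mitochondrial enzyme that makes phosphoenolpyruvate from oxaloacetate, had values of 4.12, 4.05, 3.89 and 3.97 on the CreTW arrays, against 3.05, 3.29, 2.88 and 3.25 on the Cre arrays. These too did not overlap (difference 0.89 ± 0.11, adjusted p = 0.0162 in limma). Gpt2 passed without any single array, with adjusted p-values between 0.0116 and 0.0186, and Pck2 in 4 of those 8 fits, with adjusted p-values between 0.0305 and 0.0714. Pck2 did not pass without CreTW 1, CreTW 2, CreTW 4 or Cre 1, nor with dim probes let in (adjusted p = 0.131). With the replicate number as a block, neither passed, with adjusted p-values of 0.0689 for Gpt2 and 0.1 for Pck2, and neither did in a slide row alone or with CreTW 1 alone against the Cre arrays.

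The next lowest p of this list belonged to Slc2a4, which encodes GLUT4, the insulin-regulated glucose transporter of muscle and fat. It had values of -0.39, 0.44, -0.01 and -0.07 on the CreTW arrays, against -0.94, -1.08, -0.72 and -0.78 on the Cre arrays. The genotypes did not overlap (difference 0.87 ± 0.17, adjusted p = 0.123 in limma). CreTW 2, with the highest muscle marker sum, was the highest array. CreTW 1, with the lowest sum among CreTW arrays, was the lowest of its genotype. The sum on CreTW 1, 49, lay below those on Cre 2, Cre 3 and Cre 4 (76.6, 106 and 64.4), while its Slc2a4 value lay above all Cre values. Tnni2 contributed the most to the sums on these arrays, so their order by the sum leans on this marker. Acta1, another marker of the list, gave a different order, with 0.37 on CreTW 1, against -1.45, -2.25, 1.35 and -0.80 on Cre 1 to 4. The muscle forms Eno3 and Pgam2, which also stand on the muscle marker list, had differences of 1.24 ± 0.45 and 3.45 ± 0.96 and were highest on CreTW 2. On CreTW 1 the muscle forms differed in direction. Eno3 had a value of 1.79, below the Cre range of 1.81 to 2.20. Pgam2 had one of -0.39, above Cre 1, Cre 2 and Cre 4 (-1.11, -1.82 and -1.77) and below Cre 3 (0.61). Pygm, also on the marker list, had one of 1.25, above the Cre range of 0.59 to 1.23. The part of muscle RNA in these differences was not tested.

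Of 18 known HIF targets outside the 34 genes, 15 had a negative difference, with a median of -0.29, and 0 passed the test, while 12 of the 18 had an unadjusted p under 0.05 in limma, 9 lower and 3 higher in CreTW. Over all features 51.6% had a negative difference and 10.7% such a p. Egln3, the oxygen-sensing prolyl hydroxylase PHD3, had values of -3.03, -2.62, -3.05 and -2.56 on the CreTW arrays, against -2.24, -1.92, -2.02 and -1.76 on the Cre arrays. The CreTW arrays lay below all Cre arrays, and 1 CreTW array was not well above background (difference -0.83 ± 0.15, adjusted p = 0.0993). Ndufa4l2, a mitochondrial protein induced by hypoxia, had values of 4.27, 4.58, 3.59 and 4.48 on the CreTW arrays, against 4.89, 5.48, 4.77 and 5.82 on the Cre arrays. Again the genotypes did not overlap (difference -1.01 ± 0.29, adjusted p = 0.269). Ndrg1, a hypoxia-induced gene of cell differentiation and stress, had values of 3.42, 3.46, 3.60 and 3.70 on the CreTW arrays, against 3.40, 2.91, 2.83 and 3.18 on the Cre arrays. Its CreTW values lay above the Cre values, by a narrow margin over Cre 1 (difference 0.46 ± 0.14, adjusted p = 0.286).

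Other cell types differed between arrays as well, and their part in the differences above was not tested. Among 9 osteoclast markers 8 were kept, all 8 were well above background on all 8 arrays, and their summed level was 278 to 1028 on the CreTW arrays, against 422 to 1186 on the Cre arrays. All 8 had a negative difference, with a median of -0.84. Hypertrophic chondrocyte markers, 10 of 10 kept, summed to 506 to 776 on the CreTW arrays, against 587 to 649 on the Cre arrays, with 8 of 10 negative (median -0.20). Osteoblast and osteocyte markers, 8 of 8 kept, summed to 543 to 703 on the CreTW arrays, against 536 to 706 on the Cre arrays, with 8 of 8 negative (median -0.28). Markers of perichondrium, tendon and fibroblasts, 9 of 9 kept, summed to 1621 to 2032 on the CreTW arrays, against 1484 to 1827 on the Cre arrays, with 8 of 9 positive (median 0.35). Of 8 erythroid markers, whose cells depend on glycolysis, 4 were kept and summed to 184 to 443 on the CreTW arrays, against 309 to 530 on the Cre arrays, with 4 of 4 negative (median -0.63). Neutrophil and macrophage markers, 10 of 10 kept, summed to 19.2 to 42.0 on the CreTW arrays, against 10.5 to 104 on the Cre arrays, with 7 of 10 negative (median -0.20). Endothelial markers, 6 of 6 kept, summed to 56.0 to 80.2 on the CreTW arrays, against 56.9 to 83.6 on the Cre arrays, with 5 of 6 negative (median -0.11). Across these lists 0 markers passed the test.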

How the data were processed

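Total RNA of growth plate cartilage, 100 ng per array from 4 CreTW and 4 Cre mice, was hybridised to 1-colour arrays, per the labels. Per the file headers, Agilent Feature Extraction 11.5.1.1 gave the authors' processed intensity of each spot, from which background had been subtracted, with probes on mm9. The authors used GeneSpring 14.9, per the labels. Their deposited log2 table was the log2 processed intensity shifted by 1 constant on each array (r = 1). Its medians lay between -3.03 and -2.93, and its genes were not centred.

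Spots of a probe were averaged, taken to log2 and set against the array's 75th percentile. A probe stayed in if 4 or more arrays had it well above background. Names came from the RefSeq transcripts of GRCm38.p6: 32994 of 56605 matched 1 symbol, 0 several and 23611 none. The brightest probe on average stood for a gene. Of 60 probes of the 34 genes, 57 were kept, 15 genes had several, and in 0 of them did probes differ in sign. The 3 probes left out were of Hk1, Pfkfb4 and Slc2a3.

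Genotypes were compared with limma 3.58.1 (lmFit and eBayes, 6 residual and 2.52 prior degrees of freedom) in R 4.3.3, tested on simulated data. The members, lists, pairs and rule for named genes were chosen with earlier results of these data known. The rule takes all 34 genes, with values on every array for the 3 lowest p-values of each role and for pair members, and, of each of the 2 other lists, genes past the threshold and the 3 lowest p-values. Replicate numbers were not treated as pairs in the reported fit. Correlations of same-numbered deviations were -0.01, -0.10, 0.31 and -0.03. Different-numbered arrays were not compared in this way, so these values cannot exclude a pairing. All arrays lay on 1 slide in 1 scan, with 2 of each genotype in each of 2 rows. Alternatives were other scalings, background corrections, filters and probe rules, blocks, each slide row alone, moderation settings, array weights and leaving out each array.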

Additional observations from a re-analysis of the deposited data

Results flagged for a closer look

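In 3 of the 68 sets of 4 arrays (34 genes in each genotype) 1 array lay far from the others by Dixon's test, which chance marks in about 1 of 20 sets. Eno1 had its lowest CreTW value on CreTW 3, 6.317, against 6.656 on the nearest CreTW array. Pkm had its lowest CreTW value on the same array, 5.751, against 6.25 on the nearest. On the other kept probe of Eno1 and of Pkm, CreTW 3 was not the lowest CreTW array. Slc2a3 had its lowest Cre value on Cre 4, -1.565, against -0.9865 on the nearest Cre array.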

How the results depend on the processing

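None of the 34 genes passed the test under any of 22 alternatives, whose lowest adjusted p among these genes lay between 0.0544 and 0.749 in limma. The count of features that passed, 80 as reported, was 12 under the replicate block, 27 with dim probes let in, 53 with the slide row as a block and 127 with array weights. It was 42 to 75 without single arrays, and the share of higher ones, 66.2% as reported, was then 54.8% to 73.3%. It was 0 in slide row 1 alone and 0 in slide row 2 alone, where 3164 and 1216 features had an unadjusted p under 0.05 in limma. CreTW replicate 1 alone was also set against the 4 Cre arrays. This alternative was chosen after seeing the data, because the muscle marker sums were higher on the other CreTW arrays. That array is assumed to vary like the Cre arrays. The median of the pyruvate entry genes was -0.1556 in slide row 1 alone, 0.1112 in slide row 2 alone and -0.1348 with CreTW replicate 1 alone. Medians of the other role groups kept their sign under all 22. Of 12 alternatives run on the pairs, those without single arrays gave -0.7131 to -0.4894 for Ldha minus Ldhb, -1.597 to -1.301 for Slc16a3 minus Slc16a1, -1.295 to -1.096 for Eno1 minus Eno2, 0.5609 to 0.8826 for Aldoa minus Aldoc, 0.1647 to 0.3421 for Hk2 minus Hk1 and -0.3975 to 0.16 for Slc2a1 minus Slc2a3. Eno1 minus Eno2 was -0.9921 under normexp. With the replicate block among those that ended both calls, Gpt2 passed in 18 and Pck2 in 13 of 22 alternatives. Normexp was run on the median signal, since the files used here lack the mean signal. With 4 arrays per genotype, small differences such as those of the pyruvate entry genes could not be resolved, and the cause of the changes in counts was not tested.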
